A study of Mus musculus with 12 samples.

Results

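The NRF2 antioxidant response genes were examined in 3 mouse cell lines grown with or without SX-682, an antagonist of the chemokine receptors CXCR1 and CXCR2. The set holds 10 genes chosen by name: Nfe2l2, which encodes NRF2, its inhibitor Keap1, and the targets Hmox1, Nqo1, Gclm, Gclc, Txnrd1, Srxn1, Gsr and Osgin1. The choice was made with earlier results of these data known. All 10 were found as single rows among the 34513 genes of the count table, and all 10 passed the filter on low counts, which kept 18338 genes. MelanA is a nontumorigenic melanocyte line, and B16F0 and B16F10 are melanoma lines. Untreated cultures and cultures given SX-682 were compared within each line, giving 6 groups of 2 libraries, 12 in all. The controls are labelled as given no treatment, and no vehicle is named for them. If they had none, an effect of the vehicle cannot be told apart from that of SX-682. Each group is labelled as 1 cell line, and the labels do not state its purity. Neither the dose nor the duration of SX-682 for these cultures is given in the sources used here. The paper does give a dose, a duration and a DMSO control for Ki-67 staining of these lines. Whether the same conditions were used for these cultures is not stated.

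NRF2 is a transcription factor whose amount is set mainly at the protein level. In unstressed cells KEAP1, an adaptor of the CUL3 ubiquitin ligase, holds NRF2 and marks it for degradation. When oxidants or electrophiles modify KEAP1, NRF2 accumulates, pairs with a small MAF protein and binds antioxidant response elements near genes for glutathione synthesis, thioredoxin recycling, quinone reduction and heme breakdown. Pigment cells are known for a high oxidant load, since melanin synthesis passes through reactive quinones. Because NRF2 protein was not measured here, the values below are levels of transcripts only.

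Library totals lay between 48876982 and 85322092 counts, and the closest library to each of the 12 was the other one of its group. The labels do not say whether the 2 libraries of a group came from separate cultures, so p-values measure the spread between these libraries, which may be technical. Of 8 melanocyte markers, 8 were above 1 CPM (counts scaled to library size) in both B16 lines and 7 in MelanA, where tyrosinase (Tyr) was at 0.826 CPM untreated; their summed level was 1350 to 1380 CPM in MelanA, 19300 to 19400 in untreated B16F0 and 25100 to 25200 in untreated B16F10. With SX-682 that sum was 1350 to 1360 CPM in MelanA, 16200 to 16400 in B16F0 and 15300 to 15500 in B16F10. In MelanA the flat sum held opposite moves of the group means. Sox10 went from 670.1 to 748.5 CPM and Tyrp1 from 107 to 143, while the other markers had lower means. Of those, Dct went from 355 to 271 CPM and Mitf from 102 to 79.3. In both B16 lines every marker had a lower mean with SX-682. Mitf went from 367 to 84.6 CPM in B16F0 and from 420 to 190 in B16F10. Tyr went from 515 to 289 CPM in B16F0 and from 68.1 to 17.9 in B16F10. Untreated Sox10 did not follow the sum, at 670 CPM in MelanA, 453 in B16F0 and 586 in B16F10. Fibroblast markers summed to 114 to 115 CPM in untreated MelanA and 93.5 to 94.8 with SX-682, and to 16.8 CPM or less in every B16 library. Keratinocyte, leukocyte and endothelial markers reached 4.05 CPM or less in any library. The part of these marker levels in the results below was not tested, and in bulk samples fewer cells of a type and less RNA per cell cannot be told apart. Cxcr2 had 79 and 76 counts in untreated MelanA, 34 and 47 with SX-682, and 0 or 1 in each B16 library. Cxcr1 had 21 and 13 counts in untreated MelanA, 2 and 3 with SX-682, and 0 to 5 in each B16 library. The paper reports more Cxcr2 in both B16 lines than in MelanA, for mRNA and for protein at the cell surface. Its figure caption credits the mRNA values to the NCBI database and the protein values to flow cytometry. That mRNA comparison may therefore rest on samples other than these libraries. The RNA counts here run the other way, and the reason was not tested.

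The members lie on 5 chromosomes of the mouse genome (GRCm38), at chr2:75675513-75704641 (Nfe2l2), chr9:21229730-21239361 (Keap1), chr8:75093621-75100589 (Hmox1), chr8:107388225-107403206 (Nqo1), chr3:122245557-122270732 (Gclm), chr9:77754535-77794485 (Gclc), chr10:82833951-82897712 (Txnrd1), chr2:152105516-152111376 (Srxn1), chr8:33652523-33698163 (Gsr) and chr8:119434124-119446256 (Osgin1). Counts were taken over the exons of each gene. Exons of the antisense gene Gm16754 cover 10.9% of the exonic bases of Keap1 and had 5 to 32 counts in a library. Exons of Gm17494, on the strand opposite to Gclm, cover 4.71% of its exonic bases and had 8 to 132 counts. The pseudogene Gm6061, on the same strand as Gclm and absent from the count table, covers 3.88%. Whether the counting used strand is not given in the sources used here. Reads within the stretches shared with Gm16754 and Gm17494 therefore cannot be assigned to a strand. For Gm6061 a strand setting would not separate the reads.

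Promoter windows were read to show which members carry the letters that NRF2 and its MAF partner recognise. RefSeq windows (GRCm38.p6, 250 bases before to 50 after a start) matched 7 of the 10 members, with 3 windows for Txnrd1 and none for Hmox1, Gclc and Gsr. The core letters searched were TGACNNNGC and TGAGNNNGC on both strands, and 27.8% of all 32851 windows held at least 1 of them. They were present for Nfe2l2, Gclm, Txnrd1 (1 of its 3 windows), Srxn1 and Osgin1, and absent for Keap1 and Nqo1. The AP-1 letters TGANTCA, in 7.81% of all windows, were present for Srxn1 and Osgin1, and at 1 place in each they overlap a TGAGTCAGC core. For each gene 1 core is printed, and the Srxn1 window also held the cores TGAGTCGGC and TGACCTAGC on the opposite strand. In the sequences shown, 5′ to 3′, capitals mark the core with 10 bases on each side.
Nfe2l2, 240 bases before the start, chr2:75704885-75704913, minus strand: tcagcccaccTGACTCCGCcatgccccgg
Gclm, 134 bases before the start, chr3:122245413-122245441, minus strand: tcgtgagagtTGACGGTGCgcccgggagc
Txnrd1, 92 bases before a start, chr10:82859104-82859132, minus strand: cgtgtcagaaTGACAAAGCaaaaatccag
Srxn1, 45 bases before the start, chr2:152105469-152105497, plus strand: aaattcacccTGAGTCAGCggccgggcgc
Osgin1, 99 bases before a start, chr8:119437038-119437066, minus strand: ttcataagcgTGAGTCAGCaggggcccct
Such a match is a description of these letters and not evidence of binding, and a window without one says nothing about sites elsewhere.

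Untreated levels of the members differed among the lines in both directions. Txnrd1, Srxn1 and Nfe2l2 were higher in both B16 lines than in MelanA, whereas Hmox1, Gclm, Osgin1 and Keap1 were lower in both. Between B16F0 and MelanA, 5 members were higher and 4 lower in B16F0 at an adjusted p under 0.05, where 35.3% and 40.6% of all genes tested were higher and lower. For B16F10 against MelanA, 4 were higher and 5 lower, beside 33.4% and 40.8% of all genes. Between the melanoma lines, 3 were higher and 7 lower in B16F10 than in B16F0, beside 30.8% and 31.2%. The median difference over the members was 0.17 on the log2 scale for B16F0 minus MelanA, −0.11 for B16F10 minus MelanA and −0.33 for B16F10 minus B16F0, against −0.06, −0.10 and −0.0017 over all genes tested. Scaling by library totals alone shifted the medians over all genes to −0.153, −0.286 and −0.0945.

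**Figure D1:**
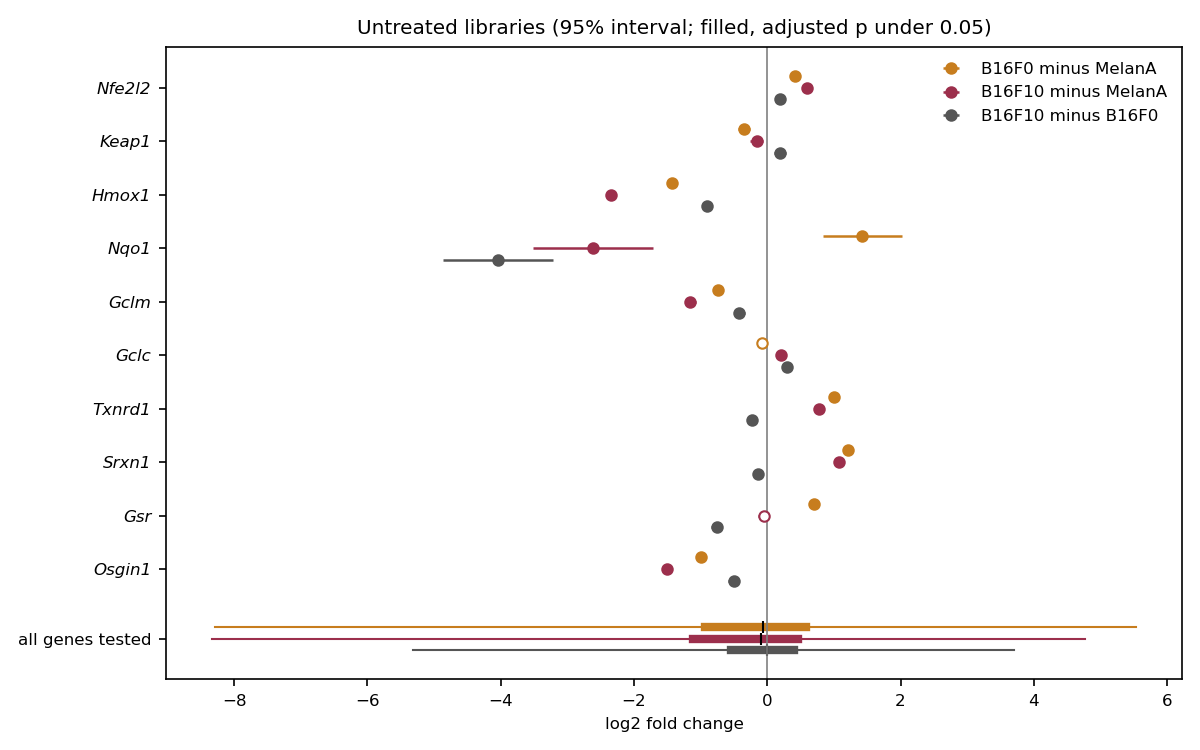
Log2 differences between untreated lines for the 10 members, with points at the fitted value and horizontal bars for the 95% interval (hidden by the point where narrower); filled points have an adjusted p under 0.05. The lowest rows show all 18338 genes tested, with thick bars over the central 50% of genes, thin bars over the central 95% and a tick at the median; Nqo1 spans the widest range of the members, from 1.43 for B16F0 minus MelanA to −4.04 for B16F10 minus B16F0.

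Levels of different genes were compared per length, as RPKM (reads scaled to gene length and library size). In untreated MelanA the order was led by Hmox1 at 164 ± 2.78 RPKM (SD, n = 2), followed by Txnrd1 at 57.9, Srxn1 at 39.7 ± 0.458 and Osgin1 at 39.7 ± 1.17. The neighbours Srxn1 and Osgin1 did not differ beyond the spread of their libraries. In both B16 lines Txnrd1 came first, at 116 RPKM in B16F0 and 99.2 in B16F10, and Srxn1 came next, at 92.2 and 84.0. Hmox1 took the third place in B16F0, at 61.1 RPKM, and stood behind Nfe2l2 in B16F10, at 32.5 ± 1.17 against 39.9 ± 0.17. Nqo1 was last in each line, at 0.354, 0.954 and 0.0571 RPKM in MelanA, B16F0 and B16F10.

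With SX-682, Nfe2l2, Hmox1, Srxn1 and Osgin1 were raised in each of the 3 lines, a pattern found in 11.3% of all genes tested. Gclm and Nqo1 were lowered in MelanA and raised in both B16 lines, and 9.59% of all genes were raised in at least 1 line and lowered in another. Gsr and Txnrd1 were lowered in MelanA and B16F10, Gclc was lowered in MelanA, and Keap1 did not pass the test in any line. No member was lowered in all 3 lines, as 11.7% of all genes were. In MelanA 4 members were raised and 5 lowered, where 23.4% of all genes were raised and 24.7% lowered. In B16F0 6 were raised and 0 lowered, beside 25.1% and 25.0%. In B16F10 6 were raised and 2 lowered, beside 25.5% and 25.3%. The median log2 fold change of the members was −0.12 in MelanA, 0.44 in B16F0 and 0.35 in B16F10, and over all genes with a library above 3 counts both untreated and with SX-682 it was −0.00034, 0.002 and 0.0063. The SX-682 libraries did not overlap the controls for 10 members in MelanA, 6 in B16F0 and 8 in B16F10, as was so for 72.7%, 70.4% and 69.4% of all genes. With 2 libraries against 2, an exact permutation test of a single gene cannot go below p = 0.333, so the calls rest on the spread shared across genes in the fit.

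**Figure D2:**
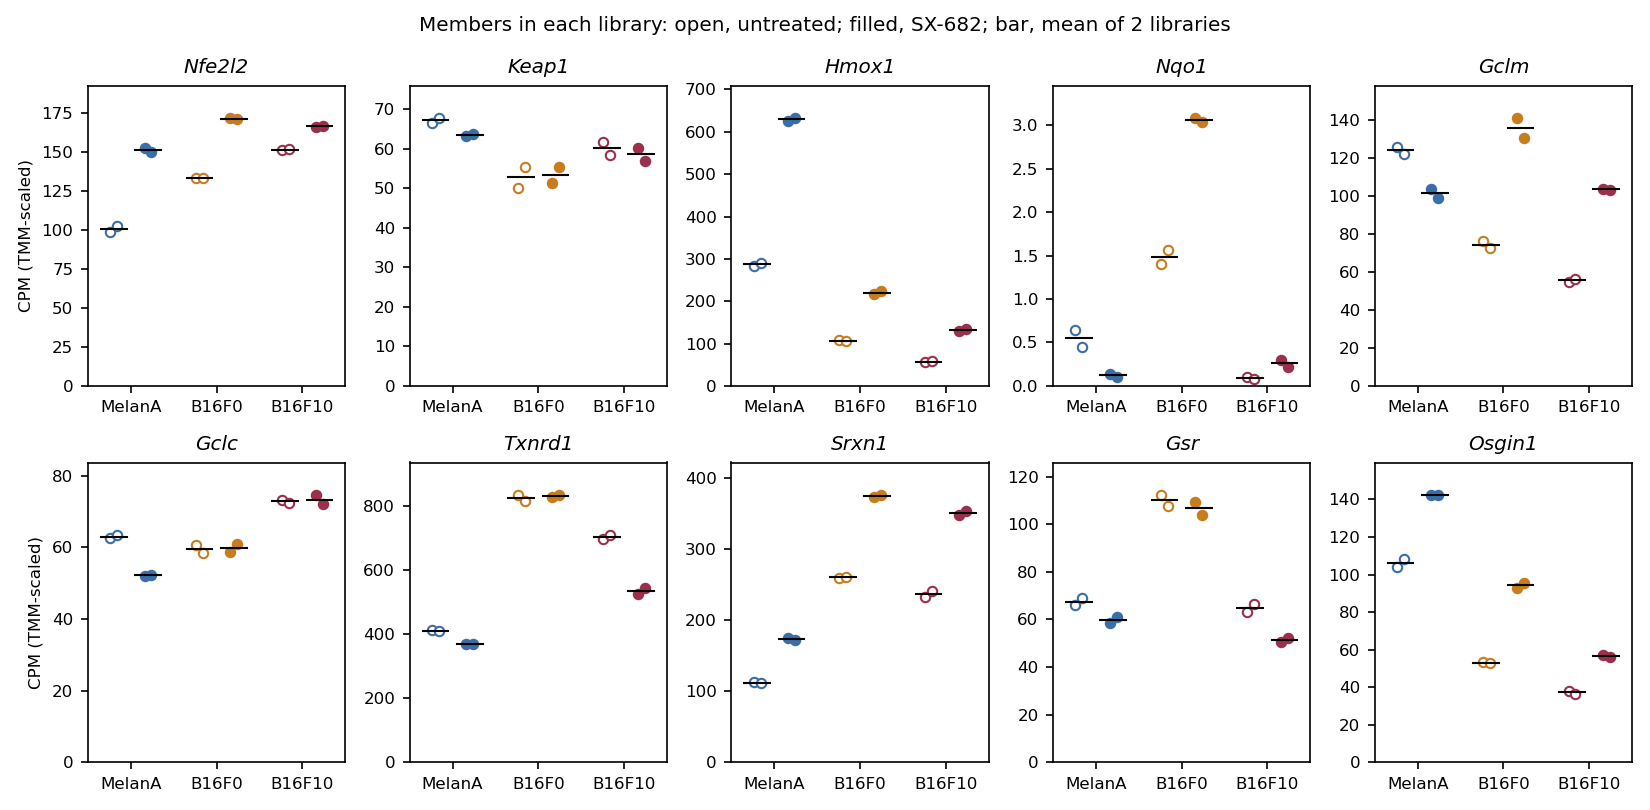
Level of each member in every library, in CPM on a linear axis that starts at 0. Open circles are untreated and filled circles SX-682 libraries, and the bar is the mean of 2 libraries; Hmox1, Srxn1, Osgin1 and Nfe2l2 sit higher with SX-682 in each line, while Gclm and Nqo1 move down in MelanA and up in B16F0 and B16F10.

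Of the regulators among the members, Nfe2l2 rose and Keap1 did not pass the test. Nfe2l2 was at 98.3 and 102 CPM in untreated MelanA and at 152 and 150 with SX-682. In B16F0 it went from 133 and 133 CPM to 171 and 171, and in B16F10 from 151 and 152 to 166 and 166. The groups did not overlap in any line, and the untreated order was MelanA, B16F0, B16F10, with each neighbouring pair differing (log2 difference of 0.41, adjusted p = 6.5e-14, for B16F0 minus MelanA, and 0.19, adjusted p = 1.2e-06, for B16F10 minus B16F0). The log2 fold change with SX-682 was 0.59 (SE 0.028, adjusted p = 6.6e-17) in MelanA, 0.36 (SE 0.028, adjusted p = 4.2e-12) in B16F0 and 0.13 (SE 0.028, adjusted p = 0.00015) in B16F10. The 3 changes differed pairwise: the rise in B16F10 was smaller than that in MelanA by 0.46 on the log2 scale (95% interval 0.38 to 0.54, adjusted p = 1.3e-10), and B16F0 lay between them, below MelanA with an adjusted p of 2.7e-05 and above B16F10 with 4.2e-05.

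Keap1 stood at 66.6 and 67.8 CPM in untreated MelanA, 50.1 and 55.5 in B16F0 and 61.8 and 58.4 in B16F10. With SX-682 it was at 63.2 and 63.8, 51.3 and 55.5, and 60.3 and 57.0 CPM. Both SX-682 libraries of MelanA were below both controls, but the log2 fold change of −0.08 (95% interval −0.17 to 0.0082) had an adjusted p of 0.13. The values in B16F0 (0.02, interval −0.08 to 0.11) and B16F10 (−0.04, interval −0.13 to 0.06) came from overlapping libraries. Among untreated lines Keap1 was lower in B16F0 than in MelanA by 0.35 on the log2 scale (adjusted p = 4.7e-08). Smaller differences, −0.16 for B16F10 minus MelanA and 0.19 for B16F10 minus B16F0, were called but lost their call without untreated B16F10 library 2 (adjusted p = 0.092) and without untreated B16F0 library 1 (adjusted p = 0.054), respectively, the latter also under scaling by library totals (adjusted p = 0.078).

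Hmox1 encodes heme oxygenase, which breaks heme down to biliverdin, iron and carbon monoxide. It had the largest rise of the members in MelanA and a rise over 2-fold in each line. Untreated MelanA held 284 and 291 CPM, against 626 and 632 with SX-682. In B16F0 the values were 108 and 106 CPM before and 218 and 223 with SX-682, and in B16F10 55.5 and 58.4 before and 131 and 133 with it. The fold change was 2.19 in MelanA (log2 1.13, SE 0.026, adjusted p = 2.3e-24), 2.06 in B16F0 (1.04, SE 0.028, adjusted p = 5.4e-23) and 2.32 in B16F10 (1.21, SE 0.03, adjusted p = 7.5e-24). The untreated libraries separated fully, with MelanA 2.69-fold above B16F0 (adjusted p = 8.2e-28) and 5.05-fold above B16F10 (adjusted p = 2.3e-32). Hence the treated B16F10 libraries stayed below the untreated MelanA libraries. The rise was larger in B16F10 than in B16F0 by 0.17 on the log2 scale (adjusted p = 0.0018), and neither differed from MelanA at the threshold (adjusted p = 0.078 for B16F0 and 0.11 for B16F10), the former passing under scaling by library totals (adjusted p = 0.01), without the filter (adjusted p = 0.046) and in 4 of the 12 fits that left out 1 library.

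Nqo1 encodes a reductase that takes quinones to hydroquinones and is often read as a marker of NRF2 activity. It was scarce throughout, so its counts are given: 56 and 41 in untreated MelanA and 10 and 8 with SX-682, 105 and 105 in B16F0 and 203 and 146 with SX-682, and 6 and 5 in B16F10 and 18 and 13 with SX-682. Scaled to depth these were 0.649 and 0.451 CPM against 0.14 and 0.107 in MelanA, 1.4 and 1.56 against 3.08 and 3.03 in B16F0, and 0.0992 and 0.0782 against 0.297 and 0.222 in B16F10. The libraries of a line did not overlap, with SX-682 lower in MelanA and higher in both B16 lines. The log2 fold change was −2.14 (SE 0.4, adjusted p = 3.9e-05) in MelanA, 1.05 (SE 0.27, adjusted p = 0.0014) in B16F0 and 1.54 (SE 0.51, adjusted p = 0.013) in B16F10. In B16F10 the call was lost without untreated library 2 (log2 1.37, adjusted p = 0.081) and without SX-682 library 1 (1.30, adjusted p = 0.093). The change in MelanA differed from that in B16F0 by 3.19 (SE 0.48, adjusted p = 3.3e-06) and from that in B16F10 by 3.68 (SE 0.65, adjusted p = 3.6e-05), while the B16 lines differed by 0.49 with an interval of −0.69 to 1.67. Untreated B16F10 was 16.4-fold below untreated B16F0 (adjusted p = 4.7e-10) and 6.1-fold below MelanA (adjusted p = 4.9e-06).

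Gclc and Gclm encode the catalytic and the modifier subunit of glutamate-cysteine ligase, the rate-limiting enzyme of glutathione synthesis. The modifier transcript moved with SX-682 in every line and the catalytic one passed the test in MelanA. Gclm fell in MelanA, from 126 and 122 CPM to 104 and 98.6. It rose from 76.4 and 72.3 CPM to 141 and 130 in B16F0 and from 54.8 and 56.5 to 104 and 103 in B16F10. No group of libraries overlapped its control. These changes were −0.29 on the log2 scale in MelanA (SE 0.036, adjusted p = 6.3e-08), 0.87 in B16F0 (SE 0.038, adjusted p = 7.5e-18) and 0.89 in B16F10 (SE 0.04, adjusted p = 8.2e-18). The response in MelanA differed from that in B16F0 by 1.16 (95% interval 1.05 to 1.27, adjusted p = 6.9e-17) and from that in B16F10 by 1.19 (adjusted p = 7.2e-17). Between B16F0 and B16F10 the difference was 0.03 with an interval of −0.09 to 0.14. Untreated Gclm was highest in MelanA, 1.67-fold above B16F0 (adjusted p = 3.6e-17) and 2.23-fold above B16F10 (adjusted p = 1.2e-21), so that with SX-682 the 6 libraries of the 3 lines lay between 98.6 and 141 CPM.

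Gclc was at 62.6 and 63.4 CPM in untreated MelanA and 52.1 and 52.4 with SX-682, a log2 fold change of −0.27 (SE 0.037, adjusted p = 3.7e-07). In B16F0 it was at 60.7 and 58.5 CPM before and 58.6 and 60.9 with SX-682, and in B16F10 at 73.3 and 72.4 before and 74.7 and 72.0 with it. The libraries of both B16 lines overlapped, and the intervals of the log2 fold change were −0.08 to 0.08 in B16F0 and −0.07 to 0.09 in B16F10. The response in MelanA lay below that in B16F0 by 0.27 (adjusted p = 0.00013) and below that in B16F10 by 0.28 (adjusted p = 8.2e-05). Per length, the ratio of Gclm to Gclc RPKM was 1.2 and 1.15 in untreated MelanA and 1.19 and 1.13 with SX-682. In B16F0 that ratio went from 0.754 and 0.74 to 1.44 and 1.28, and in B16F10 from 0.447 and 0.467 to 0.83 and 0.857. Untreated Gclc in B16F10 was above B16F0 by 0.29 on the log2 scale (adjusted p = 5.9e-08) and above MelanA by 0.21 (adjusted p = 7.3e-06), the latter a call lost under scaling by library totals (0.02, adjusted p = 0.56). Untreated B16F0 minus MelanA was −0.08 and missed the threshold (adjusted p = 0.05). That difference passed with DESeq2 (−0.11, adjusted p = 0.0059), RLE scaling, which takes size factors as DESeq2 does (adjusted p = 0.0076), library totals (−0.17, adjusted p = 0.00012), 10 counts required in every library (adjusted p = 0.0032) and the untreated libraries alone (adjusted p = 0.026). It also passed in 4 of the 12 fits without 1 library.

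Gsr encodes glutathione reductase, which returns oxidised glutathione to its reduced form at the expense of NADPH. It was at 66.3 and 68.8 CPM in untreated MelanA and 58.6 and 61.1 with SX-682, at 112 and 107 against 109 and 104 in B16F0, and at 63.3 and 66.7 against 50.6 and 52.3 in B16F10. SX-682 libraries were lower than the controls in MelanA and B16F10 and overlapped them in B16F0. The log2 fold change was −0.17 (SE 0.039, adjusted p = 0.00034) in MelanA, −0.04 (SE 0.037, adjusted p = 0.37) in B16F0 and −0.34 (SE 0.041, adjusted p = 3e-08) in B16F10. The fall in B16F10 was larger than the change in B16F0 by 0.30 (adjusted p = 1e-04). It was larger than the fall in MelanA by 0.16 (adjusted p = 0.024), a call lost without untreated MelanA library 1 (adjusted p = 0.06), SX-682 MelanA library 2 (adjusted p = 0.091), untreated B16F10 library 2 (adjusted p = 0.097) or SX-682 B16F10 library 1 (adjusted p = 0.069). Untreated B16F0 stood 1.63-fold above MelanA (adjusted p = 1.1e-16) and 1.69-fold above B16F10 (adjusted p = 8e-17). B16F10 minus MelanA was −0.06 (adjusted p = 0.2), which passed under scaling by library totals (−0.24, adjusted p = 2.1e-06), RLE scaling (−0.09, adjusted p = 0.048) and 10 counts required in every library (−0.12, adjusted p = 0.0052).

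Txnrd1 and Srxn1 act on the thioredoxin side: thioredoxin reductase keeps thioredoxin reduced, and sulfiredoxin repairs overoxidised peroxiredoxins. Both were higher in untreated B16 lines than in MelanA, and they parted with SX-682. Txnrd1 was at 411 and 409 CPM in untreated MelanA, 834 and 816 in B16F0 and 697 and 709 in B16F10, a difference from MelanA of 2.01-fold for B16F0 (adjusted p = 1.7e-26) and 1.71-fold for B16F10 (adjusted p = 1.3e-23). With SX-682 it was at 370 and 370 CPM in MelanA, 827 and 835 in B16F0 and 526 and 545 in B16F10. Both SX-682 libraries were below both controls in MelanA and B16F10, and the B16F0 libraries overlapped. Its log2 fold change was −0.15 (SE 0.022, adjusted p = 1.2e-06) in MelanA, 0.01 (interval −0.03 to 0.05) in B16F0 and −0.39 (SE 0.022, adjusted p = 1.5e-15) in B16F10. The B16F10 response lay below that of B16F0 by 0.40 (SE 0.031, adjusted p = 1.6e-11) and below that of MelanA by 0.24 (SE 0.031, adjusted p = 1.9e-07).

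Srxn1 rose from 113 and 111 CPM to 175 and 172 in MelanA, from 259 and 261 to 373 and 376 in B16F0, and from 233 and 241 to 348 and 354 in B16F10. The groups stood clear of each other in every line, and untreated B16F0 and B16F10 were 2.32-fold (adjusted p = 8.6e-27) and 2.12-fold (adjusted p = 2e-25) above MelanA. The rise was 1.55-fold in MelanA (log2 0.63, adjusted p = 1.8e-18), 1.44-fold in B16F0 (0.53, adjusted p = 3.9e-17) and 1.48-fold in B16F10 (0.57, adjusted p = 6.9e-18). It was the narrowest spread of any member that rose in the 3 lines, a range of 0.107 on the log2 scale. A test of any difference among the lines gave an adjusted p of 0.04 and lost its call without untreated MelanA library 2 (adjusted p = 0.093), SX-682 MelanA library 1 (adjusted p = 0.1) or untreated B16F0 library 2 (adjusted p = 0.067). The promoter window of Srxn1 holds both the NRF2 core and the AP-1 letters printed above.

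Osgin1, a stress-induced growth inhibitor gene, is the other member whose window holds both kinds of letters. It was at 104 and 108 CPM in untreated MelanA, 53.4 and 52.7 in B16F0 and 38.3 and 36.6 in B16F10, so that MelanA stood above B16F0, at a mean of 106 against 53 CPM (adjusted p = 2.6e-21), and 2.84-fold above B16F10 (adjusted p = 3.2e-25). With SX-682 it was at 142 and 143 CPM in MelanA, 92.9 and 95.8 in B16F0 and 57.0 and 56.2 in B16F10. In each line both SX-682 libraries lay above both controls. The log2 fold change was 0.42 (SE 0.032, adjusted p = 3.1e-12) in MelanA, 0.83 (SE 0.036, adjusted p = 5.2e-18) in B16F0 and 0.60 (SE 0.039, adjusted p = 5.7e-14) in B16F10. B16F0 rose more than MelanA by 0.41 (adjusted p = 6.2e-08) and more than B16F10 by 0.23 (adjusted p = 0.00094). The difference of 0.17 between B16F10 and MelanA (adjusted p = 0.0074) lost its call without untreated MelanA library 2 (adjusted p = 0.056), untreated B16F10 library 2 (adjusted p = 0.12) or SX-682 B16F10 library 1 (adjusted p = 0.066).

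**Figure D3:**
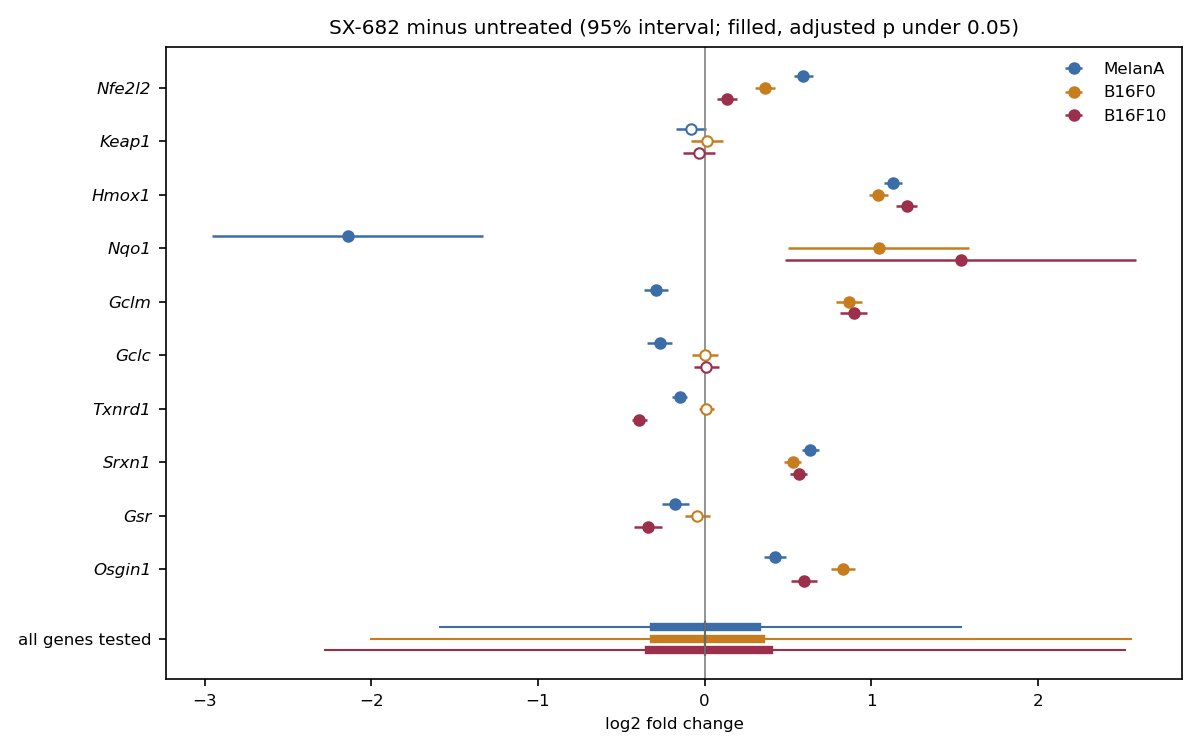
Log2 fold change with SX-682 for the 10 members in each line, with 95% intervals; filled points have an adjusted p under 0.05. The lowest rows give the central 50% (thick), the central 95% (thin) and the median (tick) of all 18338 genes tested; Hmox1 lies above 1 in each line, and for Gclm and Nqo1 the MelanA point lies left of 0 and the B16 points right of it.

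The test of any difference among the 3 responses called 9 of the 10 members, all but Keap1, where 47.4% of all genes tested were called. The pairwise tests called 7 members between B16F0 and MelanA, 7 between B16F10 and MelanA and 5 between the B16 lines, beside 34.4%, 33.8% and 30.3% of all genes. Gclm and Nqo1 were the members whose responses in MelanA differed from both B16 lines by over 1 on the log2 scale, and for neither was a difference called between B16F0 and B16F10. The 3 lines share no control libraries, but the pairwise differences share the libraries of a line.

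A list of 45 other genes was tested, called other pathway genes here. This list too was chosen with earlier results of these data known. It includes Sod1, Sod2 and Cat, 3 superoxide and peroxide enzymes often measured beside the pathway. Of the 45, 21 were raised and 13 lowered in MelanA, 26 and 10 in B16F0, and 23 and 16 in B16F10. The shares raised and lowered over all genes were 23.4% and 24.7% in MelanA, 25.1% and 25.0% in B16F0, and 25.5% and 25.3% in B16F10, and the counts of each group by role are read against the same shares. Their median log2 fold change was 0.079, 0.16 and 0.22 in the 3 lines, over the 44, 44 and 43 genes with a library above 3 counts both untreated and with SX-682. Among 10 regulators, 6, 7 and 5 were raised and 4, 3 and 5 lowered in MelanA, B16F0 and B16F10. Sqstm1, whose product p62 draws KEAP1 into autophagy, rose by 0.68, 1.53 and 1.38 on the log2 scale (adjusted p of 2.1e-22 or less); 17.3% of its exonic bases overlap Mrnip on the opposite strand. Nfe2l1, an NRF2 relative that induces proteasome genes, rose by 0.45, 1.34 and 1.42 (adjusted p of 1.2e-16 or less). The small MAF partners Maff and Mafk rose in MelanA (0.58 and 0.48) and B16F0 (0.46 and 0.54) and fell in B16F10 (−0.41 and −0.72), with adjusted p of 1.2e-07 or less in each case. Exons of Mafk overlap Tmem184a on the opposite strand over 4.33% of their bases. Gsk3b, a kinase that primes NRF2 for KEAP1-independent degradation, fell in MelanA (−0.21, adjusted p = 4.2e-07) and rose in B16F0 (0.52, adjusted p = 1.6e-15) and B16F10 (0.30, adjusted p = 3.2e-10).

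Glutathione genes were led by the subunits of the cystine importer. Of 11, 6, 6 and 5 were raised and 3, 1 and 3 lowered in MelanA, B16F0 and B16F10. Slc7a11, its transport subunit, went from 50.4 and 50.4 CPM to 88.8 and 91.3 in MelanA, from 81.3 and 83.7 to 346 and 334 in B16F0, and from 21.4 and 22 to 141 and 139 in B16F10. The fold change was 1.79, 4.12 and 6.45 (adjusted p of 4.4e-19, 4.1e-29 and 3e-30). Slc3a2, its heavy chain, which also serves other amino acid transporters, rose 3.23-fold, 2.88-fold and 4.51-fold (adjusted p of 2.8e-29 or less). Heme and iron genes were raised for 3, 4 and 4 of 5 and lowered for 1, 1 and 0, with Blvrb, a biliverdin and flavin reductase, up by 0.50, 0.80 and 1.29 (adjusted p of 2.9e-08 or less). Slc40a1, the iron exporter ferroportin, was at 0.08 in MelanA (adjusted p = 0.45) and rose by 0.93 (adjusted p = 3.6e-11) and 1.92 (adjusted p = 2.5e-15) in B16F0 and B16F10.

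Of 5 thioredoxin and peroxiredoxin genes, 1 was raised in each line and 2, 2 and 4 were lowered. Prdx1, a peroxidase that reads can share with pseudogenes of near-identical sequence, fell by 0.37, 0.15 and 0.26 (adjusted p of 1.7e-06 or less). Txnrd2, the mitochondrial thioredoxin reductase, rose in MelanA (0.54, adjusted p = 2.8e-07), was at −0.03 in B16F0 (adjusted p = 0.74) and fell in B16F10 (−0.37, adjusted p = 6.8e-07). NADPH supply genes were raised for 2, 5 and 4 of 6 and lowered for 2, 1 and 2. Taldo1, an enzyme of the pentose phosphate pathway, rose by 0.41, 0.64 and 0.69 (adjusted p of 1.2e-12 or less), and Idh1, the cytosolic NADP-dependent isocitrate dehydrogenase, fell by 0.34, 0.70 and 0.66 (adjusted p of 7.6e-08 or less). G6pdx, the first enzyme of that pathway, was at −0.07 (adjusted p = 0.025), 0.11 (adjusted p = 3e-04) and −0.10 (adjusted p = 0.00096). In MelanA it did not pass under scaling by library totals (adjusted p = 0.082), without the filter (0.096) or in a fit of that line alone (0.068). Its MelanA call was lost without any of the 4 MelanA libraries, any of the 4 B16F10 libraries or untreated B16F0 library 1 (adjusted p of 0.056 to 0.2), and 13.6% of its exonic bases overlap Ikbkg on the opposite strand.

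Detoxification genes were raised for 2 of 5 in each line and lowered for 0, 1 and 1. Cbr1, a carbonyl reductase, went from 0.973 and 0.98 CPM to 2.85 and 3.37 in MelanA, a 3.19-fold rise (adjusted p = 8.8e-11). In the B16 lines, where it stood at 15.5 to 25.1 CPM, the log2 fold change was 0.20 in B16F0 (adjusted p = 0.035) and 0.22 in B16F10 (adjusted p = 0.031). Under scaling by library totals the B16F0 value was 0.19 and did not pass (adjusted p = 0.052). The B16F0 call was lost without untreated library 2 (0.07, adjusted p = 0.58) or SX-682 library 2 (0.16, adjusted p = 0.19), and the B16F10 call without any 1 of its 4 libraries (adjusted p of 0.058 to 0.17). Ugdh, which makes UDP-glucuronate, was at −0.02 in MelanA (adjusted p = 0.61) and fell by 0.33 and 0.43 in B16F0 and B16F10 (adjusted p of 2.3e-09 and 5.3e-12). Of 3 superoxide and peroxide enzymes, 1, 1 and 2 were raised and 1 was lowered in each line. Sod2, the mitochondrial superoxide dismutase, fell by 0.19, 0.16 and 0.26 (adjusted p of 6e-04 or less). Cat, catalase, was at −0.03 in MelanA (adjusted p = 0.46) and rose by 0.45 and 0.42 in the B16 lines (adjusted p of 1.7e-12 and 5.3e-12).

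**Figure D4:**
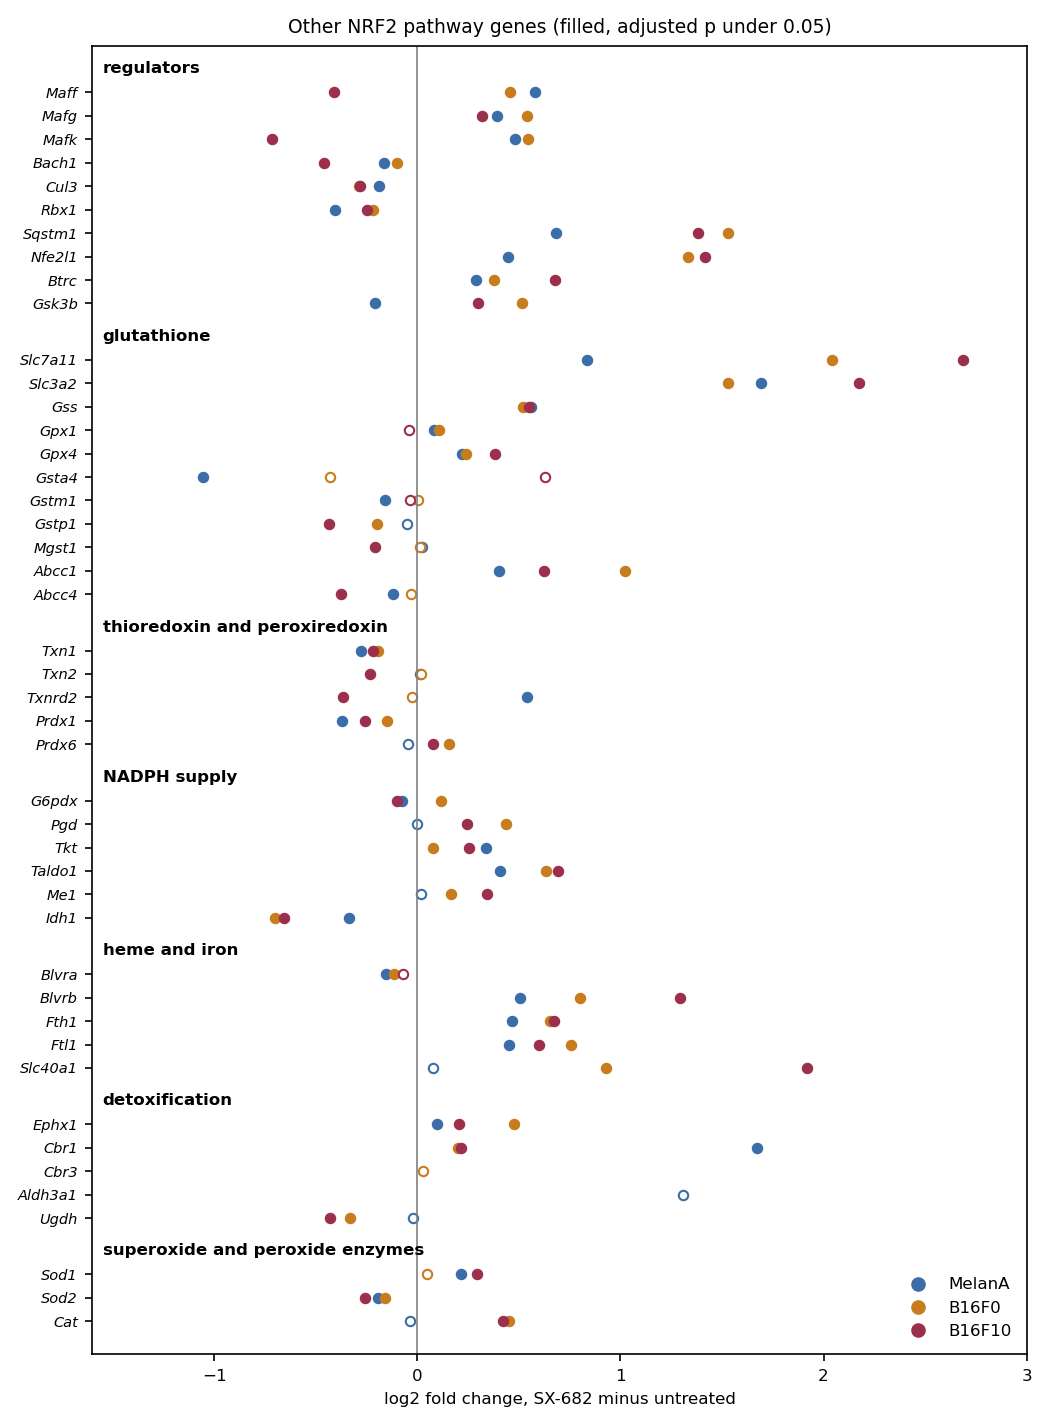
Log2 fold change with SX-682 for the 45 other pathway genes, grouped by role. They include Sod1, Sod2 and Cat, which are often measured beside the pathway. Filled points have an adjusted p under 0.05. A point is left out where the untreated or the SX-682 libraries of a line were all at 3 counts or fewer. Of the points drawn, Slc7a11 and Slc3a2 reach furthest to the right, and Maff and Mafk have the B16F10 point left of 0 and the others right of it.

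The genes whose level ran most like that of Nfe2l2 over the 12 libraries were Pikfyve, Nppb and Aup1, with Pearson's r of 0.987, 0.973 and 0.968 among 11076 genes searched. For Hmox1 they were Arsa, Rnf19b and Srp68, with r of 0.996, 0.993 and 0.992. For Nqo1 they were Casc4, Fnbp4 and Gm10825, with r of 0.989, 0.974 and 0.971 among 11077. These values describe log2 CPM over 12 libraries that share 3 lines, 1 treatment and 1 scaling, and no test was made of them.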

How the data were processed

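RNA-seq counts of 12 libraries were analysed. The authors deposited whole-number counts per gene, without normalization, with a gene length that was used for RPKM. The submitters' processing notes name mm10, cutadapt, STAR and DESeq2; the counting program and its strand setting are not given in the sources used here. Gene identifiers with version matched GENCODE M21 for 33821 of 34513 genes, each with the same coordinates. Groups came from the sample labels. The members and lists were chosen with earlier results of these data known. Counts were fitted with edgeR 4.0.16 (R 4.3.3): all 12 libraries, group only, TMM scaling, the expression filter, quasi-likelihood F-tests, Benjamini-Hochberg adjustment over 18338 genes, threshold 0.05. SEs and 95% intervals were derived from the F statistic. Residual degrees of freedom were 6 and the biological coefficient of variation 2.78%. CPM values use the TMM scale; 3 counts are 0.033 to 0.0623 CPM, a floor for counting error only. Beyond the members, named genes were, in each group of the pathway list, the 2 with the largest mean absolute change among those called in at least 2 lines, those called in opposite directions, and the 3 nearest in pattern to Nfe2l2, Hmox1 and Nqo1 (mean log2 CPM of at least 1). Near-identical copies were sought with BLAST 2.17.0 (95% identity over 200 bases). The scripts were tested on simulated data. Alternatives were DESeq2 1.42.0, other scalings, filters, thresholds and fits, a replicate block, and leaving out each library.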

Additional observations from a re-analysis of the deposited data

Results flagged for a closer look

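The SX-682 response of 9 members differed among the lines by the test of any difference (edgeR, adjusted p under 0.05, as in 47.4% of all genes tested). The value given is the log2 fold change in the highest line minus that in the lowest. It was 3.68 for Nqo1 and 1.19 for Gclm, both with MelanA falling and the B16 lines rising. The Nqo1 range rests on low counts, 5 to 18 in the B16F10 libraries and 10 and 8 in MelanA with SX-682. The range was 0.456 for Nfe2l2, highest in MelanA, and 0.406 for Osgin1, highest in B16F0. Txnrd1 had a range of 0.403 and Gsr of 0.295, both lowest in B16F10. For Gclc it was 0.278, lowest in MelanA. Hmox1 (0.17) and Srxn1 (0.107) had the smallest ranges.

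The same test called 17 of the 18 other pathway genes named by rule, all but Sod2. These genes were named for large or opposite responses, so the count is no support beside the 47.4% of all genes. Among regulators the range was 1.26 for Mafk, 0.992 for Maff, 0.967 for Nfe2l1, 0.846 for Sqstm1 and 0.726 for Gsk3b. The cystine importer genes had ranges of 1.85 (Slc7a11) and 0.645 (Slc3a2), both highest in B16F10. In the iron and heme group it was 1.84 for Slc40a1 and 0.788 for Blvrb, again highest in B16F10. Cbr1 had a range of 1.47 and Txnrd2 of 0.904, both highest in MelanA. The remaining ranges were 0.486 for Cat, 0.408 for Ugdh, 0.364 for Idh1, 0.284 for Taldo1, 0.223 for Prdx1 and 0.215 for G6pdx.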

How the results depend on the processing

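No call of a member's SX-682 response in a line was lost under DESeq2, another scaling, another filter, fits of each line alone, the replicate block or the loss of 1 library, except for Nqo1. Its B16F10 call, read from 5 to 18 counts, was lost without untreated B16F10 library 2 or SX-682 B16F10 library 1 and at an adjusted p under 0.01, and it was not tested where 10 counts were required in every library. There, 1 member was raised in 1 line and lowered in another. At an adjusted p under 0.01, 8 other pathway genes were lowered in MelanA and 1 member responded less in B16F0 than in MelanA; without 1 library that count was 1 to 3, the lowest without SX-682 MelanA library 1 (Srxn1, adjusted p = 0.052). With a log2 fold change of at least 0.5 also required, 2 members and 477 genes were raised in all 3 lines and 1 member was mixed. Under that rule MelanA had 8 other pathway genes raised and 1 lowered, 1522 genes raised, 1467 lowered and 1 member lowered; B16F0 had 14 and 1 other pathway genes, 1871 and 1690 genes; B16F10 had 12 and 2 other pathway genes, 2099 and 1845 genes, and 0 members lowered. Among untreated lines, 4247 genes were higher in B16F0 and 3705 in B16F10 than in MelanA, and B16F10 against B16F0 had 2786 genes higher, 3432 lower, 0 members higher and 4 lower.

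Changes of sign concerned values near 0 that did not pass the test. The Gclc difference between the B16 responses was −0.013 with DESeq2, −0.015 under RLE scaling and −0.011 with 10 counts required. With library totals the B16F0 response was −0.00050 for Keap1, −0.0052 for Txnrd1 and −0.013 for Gclc, and −0.0025 for Gclc without a filter. Leaving out 1 library, the range was −0.059 to 0.088 for Keap1, −0.026 to 0.032 for Gclc, −0.0074 to 0.025 for Txnrd1 and −0.11 to 0.057 for Txnrd2 in B16F0, −0.084 to 0.0061 for Keap1 and −0.026 to 0.038 for Gclc in B16F10, −0.018 to 0.19 for Slc40a1 and −0.032 to 0.0018 for Ugdh in MelanA, −0.031 to 0.082 for Gclm, −0.029 to 0.035 for Gclc and −0.13 to 0.021 for Keap1 in the response of B16F10 minus B16F0, and −0.011 to 0.080 for Keap1 in B16F10 minus MelanA. The causes were not tested.

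Same-numbered libraries did not deviate together (r of −0.0078, 0.04 and −0.014 in MelanA, B16F0 and B16F10). The labels do not say whether the numbers pair libraries. A low r cannot exclude this, since the spread between the libraries of a group may be technical. With the replicate block 1 call of a member changed: the Gsr response of B16F0 minus MelanA, 0.13 (adjusted p = 0.057), passed (adjusted p = 0.033). It also passed with DESeq2 (adjusted p = 0.042), RLE scaling (0.044), 10 counts required in every library (0.033), and without untreated MelanA library 1 (0.04) or SX-682 B16F0 library 2 (0.027).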

Other observations

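Untreated levels of the 45 other pathway genes, with Sod1, Sod2 and Cat included, also differed among the lines. In B16F0 28 were higher and 12 lower than in MelanA, in B16F10 29 were higher and 11 lower than in MelanA, and 22 were higher and 16 lower in B16F10 than in B16F0, at an adjusted p under 0.05 (edgeR). Over all genes tested, the shares higher and lower were 35.3% and 40.6% in the first comparison, 33.4% and 40.8% in the second and 30.8% and 31.2% in the last, and the counts of each group by role are read against the same shares. The median differences were 0.642, 0.321 and 0.0882 on the log2 scale, against −0.06, −0.10 and −0.0017 over all genes tested. All 5 thioredoxin and peroxiredoxin genes were higher in both B16 lines than in MelanA, with medians of 0.877 and 1.08. Of 6 NADPH supply genes, 5 were higher in both B16 lines and 1 lower. The larger groups were mixed. Of 10 regulators, 3 were higher and 5 lower in B16F0 than in MelanA, and 5 and 4 in B16F10. Of 11 glutathione genes, 7 were higher and 3 lower in B16F0, and 5 and 4 in B16F10. Heme and iron genes had 3 higher and 1 lower in B16F0, and 4 and 1 in B16F10. Detoxification genes had 3 and 1, then 2 and 1. Superoxide and peroxide enzymes had 2 and 1, then 3 and 0. These counts were made with the members' results known.

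Cbr3, a carbonyl reductase whose gene is a neighbour of Cbr1, was named after its values were seen. It had 1847 and 1597 counts in untreated B16F0 and 1613 and 1195 with SX-682. Its counts were 0 in each B16F10 library and 0, 0, 0 and 2 in the MelanA libraries.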
